A study of Mus musculus with 20 samples.

Results

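DNA methylation of hematopoietic stem cells (HSCs) after 10 cycles of 5-fluorouracil (5FU) was set against that of untreated HSCs. The 10x group held 6 samples (labelled 11, 12, 31, 32, 33 and 34) and the 0x group 4 samples (01, 02, 13 and 14), of the 20 samples in the series, which also holds mice given fewer cycles (2x and 4x). All were C57BL/6 mice (C57BL/6 J in the methods), described as females 3 months of age at the start. The 10x mice received 5FU, an antimetabolite that kills dividing cells, by intraperitoneal injection every 3 weeks, and the 0x mice received none. HSCs were sorted from marrow as Lin-cKit+Sca1+CD34-Flk2-CD150+ cells 1 month after the last cycle, whereas the labels name blood as the tissue. The sources do not say whether each sample is a separate mouse, so the p-values describe only how these samples vary, and that variation may be technical. Reduced representation bisulfite sequencing (RRBS) reads methylation in CpG-rich restriction fragments, and the deposited unit is the percent methylation of a 100 bp bin. Of 1164897 autosomal bins (1201951 in all), 189385 (16.3%) were used. In these bins both groups varied between their samples, and no value other than 0% or 100% was repeated exactly within a group, since bins missing in a sample had been given the mean of its group. A bin filled in only 1 sample of a group, or filled with 0% or 100%, passes this rule, so filled values may remain. Read numbers are not part of the files, so the depth behind each value is unknown and no counting interval is given.

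In mammals, a methyl group on the cytosine of a CpG is copied to the new strand at each division by Dnmt1 and set afresh by Dnmt3a and Dnmt3b, while Tet enzymes begin its removal. Most CpGs of the genome are methylated, and the CpG-dense islands at many transcription start sites (TSS) are kept largely free of it. In HSCs, Dnmt3a and Tet2 are needed for a balance between self-renewal and differentiation, and most adult HSCs are quiescent until a loss of dividing blood cells, as after 5FU, draws them into cycle.

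Of the 100 bp bins that differed most, 5 are shown to make plain how few CpGs lie behind a value, with their CpGs in capitals. They are printed 5′ to 3′ on the plus strand of GRCm38 (RefSeq sequence), and none of them overlaps an exon. The first lies 1611 bp upstream of Twist2 (chr1:91799800-91799899) and the second in the Isl2 gene, 3301 bp from its TSS (chr9:55544400-55544499), and both were lower in 10x. The other bins were higher in 10x. They lie in an Azin2 intron (chr4:128961000-128961099), in an Abcc3 intron with Gm51871 as the gene of the nearest TSS (chr11:94346200-94346299) and in an Slc11a2 intron (chr15:100419900-100419999).
Twist2 bin: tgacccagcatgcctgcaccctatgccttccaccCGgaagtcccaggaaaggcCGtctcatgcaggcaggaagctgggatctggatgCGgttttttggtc
Isl2 bin: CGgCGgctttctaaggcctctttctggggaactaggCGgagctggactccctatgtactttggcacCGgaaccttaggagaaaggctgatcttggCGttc
Azin2 bin: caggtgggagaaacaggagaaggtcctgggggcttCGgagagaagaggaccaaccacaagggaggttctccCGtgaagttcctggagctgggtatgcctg
Gm51871 bin: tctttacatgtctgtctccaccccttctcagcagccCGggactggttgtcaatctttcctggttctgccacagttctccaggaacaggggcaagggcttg
Slc11a2 bin: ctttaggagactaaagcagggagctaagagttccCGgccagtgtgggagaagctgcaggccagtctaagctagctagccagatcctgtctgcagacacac
The Isl2 bin holds 5 CpGs and the Twist2 bin 3, whereas the Azin2 bin holds 2 and the Gm51871 and Slc11a2 bins 1 each. A bin with 1 CpG thus reports the state of a single site. Over all bins used the median was 3 CpGs.

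One library stood apart from its group. In 10x sample 32, 18.8% of the values were exactly 0% or 100%, against 35.8 to 50.1% in the other 10x samples and 37.4 to 54.2% in 0x. In the 56411 bins with all 10x values distinct, its median distance from the mean of the other 10x samples was 1.79 percentage points. For each of the other 10x samples that distance was 5.12 to 6.29 points. Sample 32 fell outside the range of the others in 18.6% of these bins, against 28.1 to 40.9% for the other 10x samples. The library labelled 32 therefore lay near the middle of its group in most of these bins, and whether it holds many filled values was not tested. The main results below are also given without it, whereas other values, among them most gene list values, are given with it only.

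Mean methylation was higher after 10 cycles. Over the 189385 bins it was 56.3% ± 0.279 in 10x (SD, n = 6) and 54.5% ± 0.727 in 0x (SD, n = 4), and the groups differed by 1.74 percentage points (SE 0.381; two-sided exact permutation test over 210 splits, p = 0.00476, the smallest these samples can give). By sample, 10x read 56.6, 56.0, 56.6, 56.1, 56.3 and 56.0%, and 0x read 55.6, 54.3, 53.9 and 54.2%. Every 10x sample stood above every 0x sample, and 0x sample 01 was the highest of its group. Without 10x sample 32 the difference was 1.76 points (exact permutation test, p = 0.00794). The 10x mean was higher on all 19 autosomes, by 1.51 to 1.94 points, and was higher in 56.9% of bins and lower in 43.1%. A difference of at least 10 points was seen upward in 27095 bins and downward in 14642, and the median over bins was 0.672 points.

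The sample numbers fall into an early run (01 to 12) and a later one (13 to 34), each with both groups. In the first run, 10x averaged 56.3% and 0x 54.96%, which differ by 1.32 points (2 against 2 samples; exact permutation test, p = 0.333, which is the smallest possible). In the second run, 10x averaged 56.3% and 0x 54.1%, which differ by 2.16 points (4 against 2 samples; exact permutation test, p = 0.0667, again the smallest possible). What the runs mark is not given in the sources used here. With the run as a block the difference was 1.74 points (exact permutation test within runs, p = 0.0111).

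The size of this difference varied with the choice of bins. A bin was kept only if both groups varied, and the groups differ in number. A single value off 0% or 100% moves a mean of 4 samples more than a mean of 6. How far this shaped the differences was not tested. Of the autosomal bins, 63.9% were at 1 value throughout 10x and 73.0% throughout 0x. In 161952 bins chosen instead by variation in 2x and 4x, again with no repeated value in 10x or 0x, the difference was 1.20 points (exact permutation test, p = 0.00476). Over all autosomal bins as deposited, filled values included, the 10x samples averaged 77.0 to 77.2% and the 0x samples 76.0 to 76.5%.

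In the bins used, no difference was detected within 1 kb of a TSS, and methylation was higher in 10x away from TSS. Within 1 kb of a TSS, 10x averaged 15.1% ± 0.128 and 0x 15.1% ± 0.236 (SD), so that 10x minus 0x was -0.0208 points with overlapping groups (exact permutation test, adjusted p = 0.881). At 1 to 5 kb it was 61.9% in 10x and 60.01% in 0x (1.91 points). At 5 to 20 kb it was 77.4% in 10x and 74.8% in 0x (2.64 points), at 20 to 50 kb 80.9% and 78.0% (2.82 points) and beyond 50 kb 85.7% and 82.6% (3.04 points), with 10x named first in each. In each of these 4 classes the groups did not overlap (exact permutation test, Benjamini-Hochberg adjusted over 5 classes, p = 0.00595). The rise beyond 20 kb exceeded that within 1 kb by 2.95 points (SE 0.418; exact permutation test on the per-sample gap, p = 0.00476). Leaving out 10x sample 32 gave -0.0246, 1.95, 2.67, 2.88 and 3.09 points. With bins chosen by variation in 2x and 4x they were 0.302, 1.34, 1.65, 1.73 and 1.77 points, so that within 1 kb 10x was then higher (exact permutation test, adjusted p = 0.0429) and the distal differences shrank, while the gap remained at 1.45 points (exact permutation test, p = 0.00476).

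**Figure D1:**
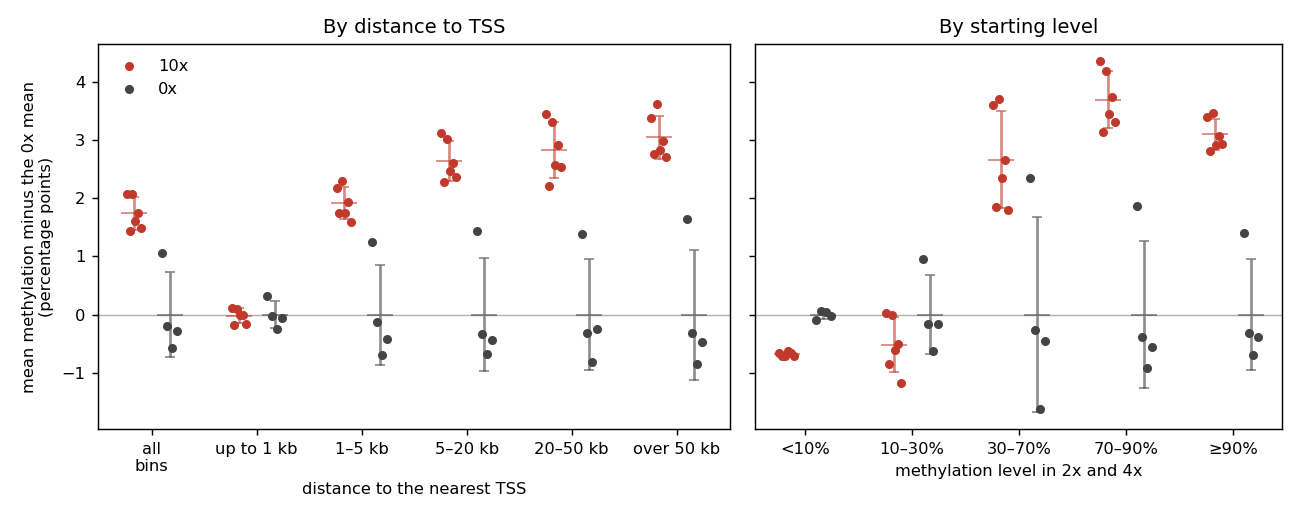
Mean methylation of each sample minus the mean of the 0x samples, in percentage points, by distance to the nearest TSS (left, with all bins first) and by methylation level in the 2x and 4x samples (right); points are samples, 10x left of 0x, with the mean and 1 SD. The 10x points lie above all 0x points at 1 kb and beyond and among them within 1 kb, while in bins under 10% methylated they lie below.

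The profile around the TSS showed the same shape at finer steps. Methylation was lowest in the 250 bp downstream of the TSS, at 9.28% ± 0.0558 in 10x and 9.41% ± 0.0759 in 0x (SD), and in the 250 bp upstream it was 10.4% in 10x and 10.5% in 0x. From 500 bp upstream to 750 bp downstream the differences lay between -0.210 and 0.0873 points, and the groups overlapped in every step. At 1500 to 2000 bp upstream 10x averaged 66.4% and 0x 64.0%, and from there outward the groups no longer overlapped. On the downstream side separation began at 2000 to 3000 bp, with 61.6% in 10x and 59.8% in 0x.

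**Figure D2:**
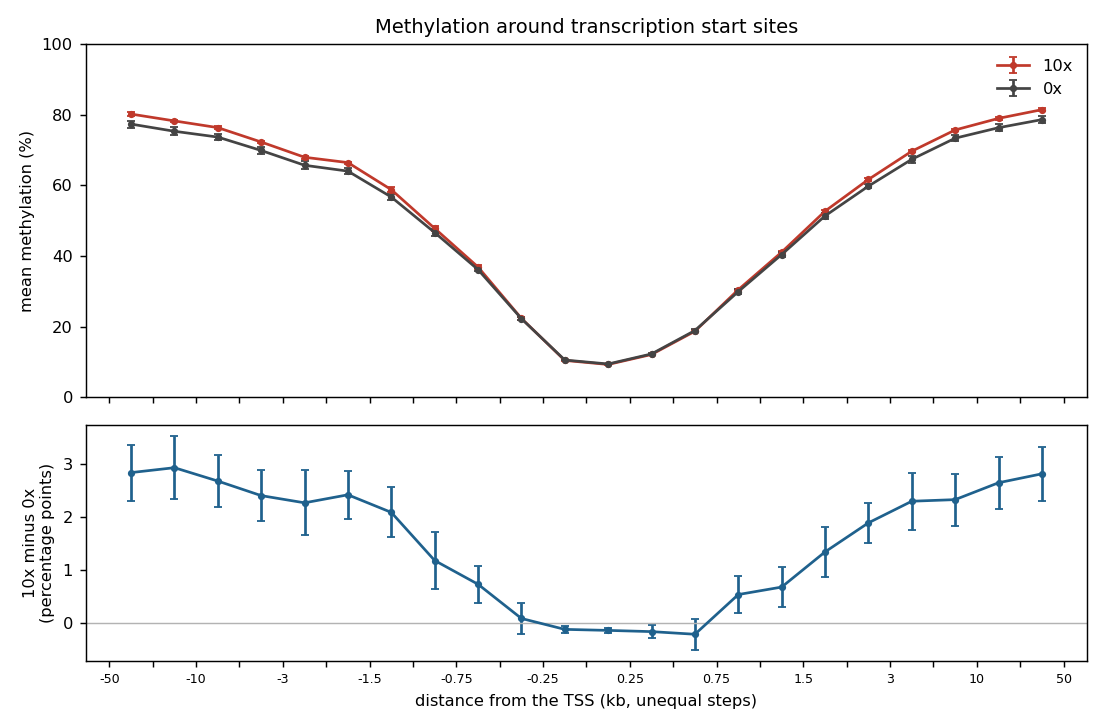
Mean methylation in percent (top, mean and 1 SD; 10x red, 0x dark grey) and 10x minus 0x in percentage points (bottom, with its standard error) against signed distance from the TSS in kb, in unequal steps. Methylation falls to 9.28% in 10x and 9.41% in 0x just downstream of the TSS, and the difference is close to 0 there and reaches 2.93 points at 10 to 20 kb upstream.

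By level, methylation was higher in 10x in bins of 30% and over. The level of a bin was taken from the 2x and 4x samples, so that neither of the compared groups set its class. These mice had also received 5FU, so the level is not that of untreated cells. In bins of 90% and over (72608 bins) 10x averaged 94.4% and 0x 91.3% (3.10 points). In bins of 70 to 90% it averaged 84.7% in 10x and 81.1% in 0x, higher by 3.69 points (exact permutation test, adjusted p = 0.00794 for both classes). In bins of 30 to 70%, 10x averaged 55.7% and 0x 53.02%, and the groups overlapped through 0x sample 01 (2.66 points; exact permutation test, adjusted p = 0.0179). Bins of 10 to 30% had 18.9% in 10x and 19.5% in 0x (-0.519 points; exact permutation test, adjusted p = 0.2). In bins under 10% (59473 bins), 10x averaged 3.60% ± 0.0366, against 4.28% ± 0.0717 in 0x (SD), which is -0.681 points with no overlap (exact permutation test, adjusted p = 0.00794).

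The differences by level also depended on the choice of bins. With bins chosen by variation in 2x and 4x, the differences from the lowest to the highest class were -0.0888, 0.296, 2.39, 2.20 and 1.44 points (exact permutation test, adjusted p = 0.0417, 0.31, 0.0238, 0.0119 and 0.0119 in the same order). The difference in bins under 10% was then close to 0, and the rise in bins of 90% and over was less than in the bins used above. With repeated values set to missing, 10x was higher by 0.172 points in bins under 10%. In bins of 10 to 30% it was then higher by 1.24 points (exact permutation test, adjusted p = 0.0143 for both). Without 10x sample 32, in the bins used above, the differences from the lowest to the highest class were -0.691, -0.502, 2.72, 3.74 and 3.13 points. When bins were sorted by their level in 0x, as a description, since 0x then both set the class and entered the difference, 10x minus 0x was 0.694, 0.918, 7.36, 4.98 and -0.951 points, with signs opposite to those by the 2x and 4x level in bins under 30% and in bins of 90% and over.

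Within a level class, the differences across distances are given as a description. In bins of 90% and over, 10x exceeded 0x by 3.02 points within 1 kb of a TSS and by 3.18, 3.08, 3.07 and 3.10 points in the 4 classes farther out. In bins under 10% the differences were -0.532, -1.10, -1.38, -1.75 and -1.66 points from the nearest to the farthest class, and in bins of 10 to 30% they lay between -0.855 and -0.0370 points. Of the bins within 1 kb, 47915 of 61901 were under 10% methylated. The number of CpGs in a bin went with the size of the difference at both ends of the level range. In bins of 90% and over it was 4.18 points with 1 CpG or none, 3.29 points with 2 or 3, 2.12 points with 4 to 7 and 1.21 points with 8 or more. In bins under 10% it was -3.18, -1.58, -0.860 and -0.361 points in the same order. Whether this pattern holds with another choice of bins was not tested. Taken over all levels, the same classes of CpG number gave 3.45, 2.61, 1.13 and -0.234 points. More than 1 kb from a TSS, exons differed by 1.77 points (70.8% in 10x, 69.1% in 0x), introns by 2.62 points (76.4% and 73.8%) and intergenic bins by 2.85 points (78.0% and 75.2%).

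**Figure D3:**
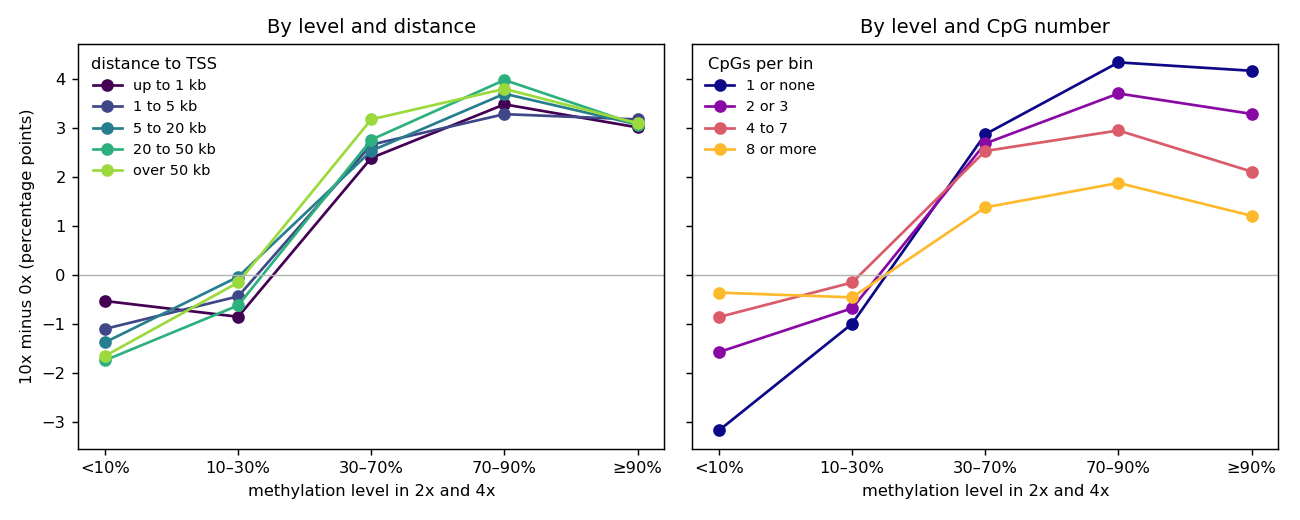
Difference 10x minus 0x in percentage points against the methylation level in the 2x and 4x samples, with 1 line per class of distance to TSS (left) or of CpG number in the bin (right). The distance lines lie at 3.02 to 3.18 points in bins of 90% and over and at -1.75 to -0.532 points in bins under 10%, and the CpG lines spread between 1.21 and 4.18 points in bins of 90% and over.

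Single bins were tested with limma, and a bin counted as past the threshold at a Benjamini-Hochberg adjusted p under 0.05 and a difference of at least 10 points. In 10x, 22 bins (0.0116% of those tested) were higher and 8 (0.00422%) lower, and in all 30 the groups did not overlap, with differences of 16.3 to 81.9 points in size. At an unadjusted limma p under 0.05 with the same minimum, 5655 bins (2.99%) were higher and 2408 (1.27%) lower. Without 10x sample 32, whose value lay inside the range of the other 10x samples in 29 of the 30 bins, only the Twist2 bin stayed past the threshold (limma, adjusted p = 0.0183) and none was higher, with 4401 bins higher and 1926 lower at an unadjusted p under 0.05. Without 1 other 10x sample at a time 9 to 21 of the 30 bins stayed, without 0x sample 02 18 stayed, and without 0x sample 01, 13 or 14 all 30 did. Without 0x sample 01 the counts were 193 higher and 57 lower. Of the 30 bins, 5 stayed in limma with the sample run as a block, 0 with a log2 ratio of the percents and 0 with a variance trend.

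The share of bins higher in 10x by at least 10 points at an unadjusted limma p under 0.05 was 1.17% within 1 kb of a TSS. It was 3.69, 3.93, 4.01 and 3.80% in the classes farther out. The share lower was 0.994% within 1 kb and 1.88, 1.36, 1.42 and 0.938% farther out, with no steady trend. By level, the share higher peaked at 7.58% in bins of 30 to 70%, where 4.22% were lower, and in bins under 10% it was 0.232% higher and 0.767% lower. In bins with 8 or more CpGs, 0.392% were higher and 0.498% lower, against 4.37% and 1.61% in bins with 1 CpG or none.

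The largest rises were at single bins of introns, a coding exon, an untranslated region and intergenic DNA. A bin in the 5′ UTR of Galnt15, an enzyme that starts O-linked glycosylation, 147 bp from its TSS (chromosome 14, 32029200 to 32029299), had 100, 71.4, 100, 89.5, 100 and 100% in the 10x samples and 0, 15.4, 38.1 and 0% in 0x. The lowest 10x sample stood well above the highest 0x sample. The difference was 80.1 points (SE 8.69; limma, adjusted p = 0.0413). The Gm51871 bin printed above, inside the export pump gene Abcc3, had 80.3, 91.9, 61.5, 83.5, 100 and 89.5% in 10x and 10.0, 0, 21.1 and 0% in 0x (76.7 points; limma, adjusted p = 0.0276). In both bins the samples of a group also differed widely from each other.

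The Azin2 bin, in the gene of an antizyme inhibitor that raises polyamine synthesis, had 100, 100, 88.9, 99.5, 100 and 100% in 10x and 16.7, 39.0, 36.8 and 41.9% in 0x. The 10x samples were nearly fully methylated and none of the 0x samples was, a difference of 64.5 points (SE 4.87; limma, adjusted p = 0.0148). The adjacent bin, 100 bp away, had a mean of 91.4% in 10x and 65.5% in 0x. That neighbor lies in the same direction, at an unadjusted limma p of 0.00279 and an adjusted p of 0.471. The Slc11a2 bin, in the gene of the iron transporter DMT1, had 75.8, 61.0, 93.0, 67.8, 52.9 and 58.7% in 10x and 10.6, 0, 0 and 0% in 0x, a difference of 65.5 points (limma, adjusted p = 0.0428). Only 0x sample 01 had any methylation there.

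A bin in a coding exon of Sgip1, an endocytosis adaptor, with 4 CpGs (chromosome 4, 102956100 to 102956199; its nearest TSS is that of Tctex1d1), had a tight spread. It had 54.3, 62.2, 66.7, 62.3, 60 and 53.8% in 10x and 3.45, 0, 13.6 and 10.7% in 0x, with a wide gap between the groups. The difference was 52.9 points (SE 3.51; limma, adjusted p = 0.00767). It was kept without any 1 sample other than 10x sample 32, without which the adjusted p was 0.0552. In limma the adjusted p was 0.295 with a log2 ratio of the percents and 0.614 with a variance trend.

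The remaining bins with the largest rises were methylated to at least 73.7% in every 10x sample. They lay in an intron of Ednrb, the endothelin B receptor (97.1% in 10x and 53.4% in 0x), in a Rhpn2 intron near Gm51476 (93.6% and 42.7%), in an intron of Sfta3-ps (97.8% and 50.6%), and in intergenic DNA near the scaffold gene Slc9a3r2 (94.2% and 23.1%) and near Pheta1, an endosomal trafficking gene (97.7% and 54.5%). Around the Ednrb bin, 3 further bins up to 500 bp away were also higher in 10x, one of them 300 bp away with 58.5% in 10x and 10.96% in 0x (limma, adjusted p = 0.0938). In the 2x and 4x samples, filled values included, the 10 bins with the largest rises averaged between the means of 10x and 0x, apart from the Ednrb bin, which was at 100%. The Azin2 bin averaged 96.3% there, the Gm51476 bin 83.5%, the Slc9a3r2 bin 79.6%, the Sfta3-ps bin 73.9%, the Gm51871 bin 68.3%, the Pheta1 bin 60.9%, the Galnt15 bin 54.1%, the Slc11a2 bin 52.7% and the Sgip1 bin 36.4%.

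The 8 bins that were lower included 2 of those printed above. At the Twist2 bin, upstream of a basic helix-loop-helix transcription factor of mesenchyme, 10x had 38.5, 50.7, 52.9, 48.0, 45.5 and 46.7% and 0x had 95.7, 100, 100 and 100%. All 0x samples were close to full methylation and none of the 10x samples was. The difference was -51.9 points (SE 2.75; limma, adjusted p = 0.00206), and it was past the threshold without any 1 sample and with the sample run as a block (adjusted p = 0.00813), though with a log2 ratio of the percents limma gave an adjusted p of 0.179 and with a variance trend 0.614. The 2x and 4x samples averaged 35.8% there. The bin 100 bp upstream had 23.5% in 10x and 36.1% in 0x (limma, adjusted p = 0.899).

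The Isl2 bin, in the gene of a LIM homeodomain factor of motor neurons, had 0, 5.99, 0, 4.03, 0 and 6.82% in 10x and 25.7, 26.3, 26.0 and 25% in 0x. The 0x samples were nearly alike there, and the difference was -22.9 points (SE 1.91; limma, adjusted p = 0.0194). Without 10x sample 32 the adjusted p was 0.0916.

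The widest gap of all was in intergenic DNA 8097 bp from Gm46943, with 0 to 42.9% in 10x and 98.0 to 100% in 0x (-81.9 points; limma, adjusted p = 0.0361). Upstream of Kcnc1, a voltage-gated potassium channel, 10x lay at 0 to 36.9% and 0x at 73.8 to 100%. Next to Krt84, a hair keratin, 10x lay at 47.2 to 66.7% and 0x at 86.7 to 100%. In Sipa1l3, a regulator of the GTPase Rap, 10x lay at 0 to 20.8% and 0x at 50 to 59.6%, and in a Gnl1 intron near Prr3 10x lay at 0 to 4.84% and 0x at 20.9 to 32.3%. Just outside the threshold, a bin near Gm29328 averaged 34.6% in 10x and 93.7% in 0x (limma, adjusted p = 0.0514), and a bin in introns of Gas7 and Glp2r near Rcvrn 0.187% and 13.4% (limma, adjusted p = 0.0514).

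Bins next to the selected ones were also looked at. Of the 20 bins selected (18 past the threshold and the 2 just outside), 12 had other bins of the set within 500 bp, 22 in all. Of the 22 neighbors, 13 differed in the direction of their selected bin, and 4 had an unadjusted limma p under 0.05, 3 of them in the same direction (beside Azin2, Ednrb and Rcvrn). The fourth, beside the Gm29328 bin, was higher in 10x (72.1% in 10x and 52.7% in 0x) where the selected bin was lower. Of all 189385 bins, 56.9% were higher in 10x and 43.1% lower. At an unadjusted limma p under 0.05 with no minimum difference, 6978 of them were higher and 3359 lower.

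**Figure D4:**
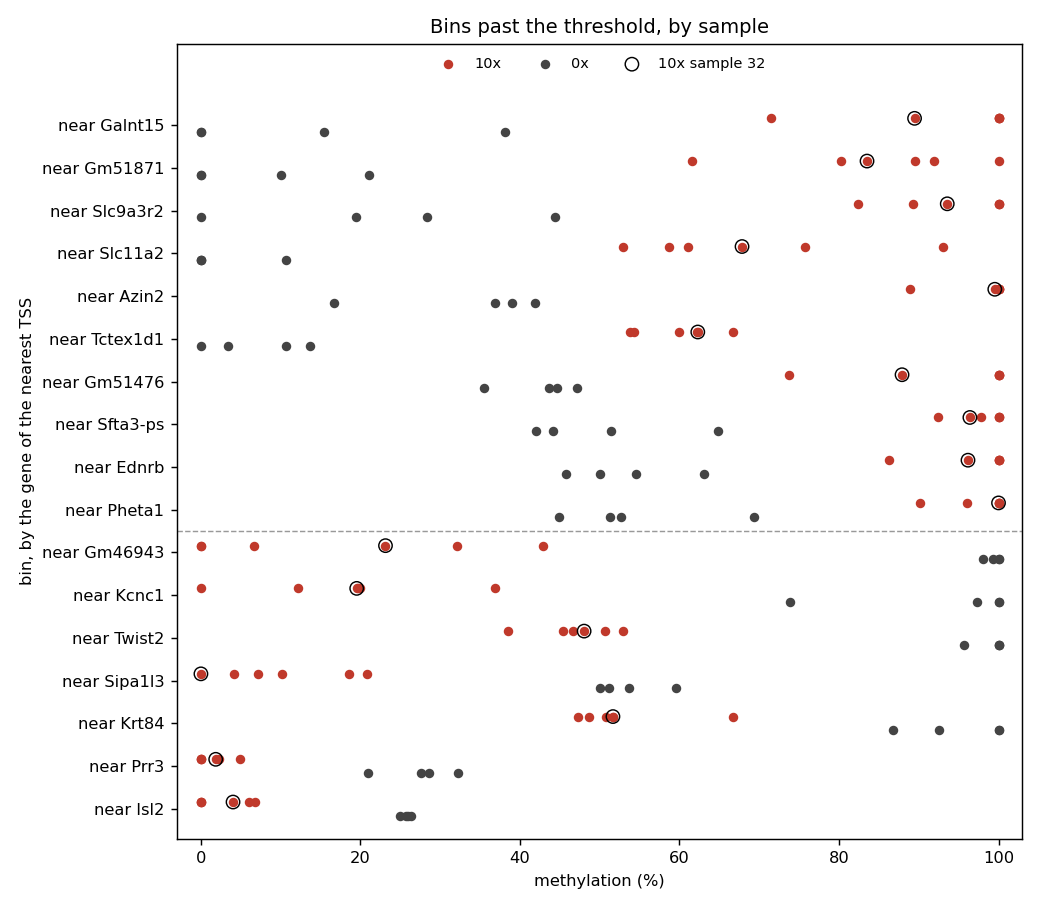
Methylation in percent of each sample at the 10 bins with the largest rise (above the dashed line) and 7 bins with a fall (below it), each named by the gene of its nearest TSS; 10x red above 0x dark grey within a row, with 10x sample 32 circled and equal values drawn over each other. The groups do not overlap in any of these 17 bins, and 10x sample 32 lies within the spread of the other 10x samples in all but the Sipa1l3 bin.

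Promoters were taken as the mean of a gene's bins within 1 kb of a TSS and tested with limma with no minimum difference. Of 18080 genes, 0 promoters (0%) were higher and 1 (0.00553%) lower at an adjusted p under 0.05. At an unadjusted limma p under 0.05, 520 (2.88%) were higher and 624 (3.45%) lower, and a variance trend in limma also gave 0 higher and 1 lower. The promoter that fell was that of Zfp831, a zinc finger protein gene (chromosome 2, 174598682 to 174710832, plus strand). It had 15.8, 32.7, 15.5, 22.0, 19.6 and 22.4% in 10x and 61.1, 60.7, 59.0 and 59.5% in 0x, so that the groups were far apart. The difference was -38.7 points (SE 3.05; limma, adjusted p = 0.00594), and -38.9 points without 10x sample 32 (adjusted p = 0.0354). It rested on 2 bins, with differences of -43.4 and -34.1 points, and in the second of them 0x sample 02 (38.1%) lay among the 10x samples (13.04 to 44.8%). With promoters of 500 bp, with at least 3 bins per promoter and with a log2 ratio of the percents this promoter was not past the threshold or not tested.

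The promoters with the next smallest p, picked among those whose groups did not overlap, missed the threshold. Of all 18080 promoters, 114 were higher and 152 lower in 10x with no overlap of the groups. Higher in 10x were Cox6b2, a testis form of a cytochrome c oxidase subunit (8.22% in 10x and 0.151% in 0x; limma, adjusted p = 0.0583), Mir6998 (92.1% and 51.2%), Amigo3 (94.8% and 67.4%), Timd4, a phosphatidylserine receptor of macrophages (97.7% and 83.6%), Ints5, an Integrator subunit (18.8% and 1.15%), and Galnt15 (78.9% and 33.9%), which holds the bin described above. Lower in 10x were Zfp414 (0.321% in 10x and 4.91% in 0x), the autophagy gene Atg5 (2.52% and 12.1%), which shares its bins with Gm40637, Dpcd and the DNA polymerase gene Poll, which share theirs (1.43% and 8.46%), and N4bp3 (16.5% and 25.8%), which shares its bins with D930048N14Rik. Adjusted p in limma for these lay between 0.0583 and 0.183. Among them was the promoter of Mecom, which codes for the HSC transcription factor Evi1, with 2.08, 4.83, 2.75, 2.98, 1.13 and 1.92% in 10x and 7.65, 7.17, 10.3 and 8.27% in 0x over 7 bins (-5.74 points; limma, adjusted p = 0.183).

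Gene bodies, the mean of at least 3 bins of a gene more than 1 kb from its own TSS, were more often higher than lower in 10x. Bins near the TSS of another gene were kept in a body. Of 8843 genes, 6027 had a higher and 2816 a lower mean in 10x, with a median difference of 1.91 points, whereas of the promoters 8465 were higher and 9615 lower, with a median of -0.173 points. At an adjusted p under 0.05, 3 bodies (0.0339%) were higher and 1 (0.0113%) lower, and at an unadjusted limma p under 0.05 878 (9.93%) were higher and 138 (1.56%) lower. The body of Tifab, which codes for a TIFA-related inhibitor of innate immune signaling in blood cells, had 83.0, 90.4, 90.6, 87.9, 90.6 and 94.6% in 10x and 62.5, 66.7, 56.3 and 62.8% in 0x. Every 10x sample stood above every 0x sample, a difference of 27.4 points (SE 2.71; limma, adjusted p = 0.00711; 0.0315 without 10x sample 32; 0.147 with a log2 ratio of the percents). Of its 3 bins, the one at chromosome 13, 56176000 to 56176099, carried most of the difference, with 86.9% in 10x and 27.7% in 0x. The overlapping gene Gm31657 (93.1% in 10x and 74.1% in 0x; limma, adjusted p = 0.0332) shares all 3 bins and adds 2, so the pair is not independent.

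C1qtnf7, which codes for a secreted C1q-like protein, had a body mean of 92.8% in 10x and 71.3% in 0x (21.5 points; limma, adjusted p = 0.0332), with 86.7 to 96.4% in 10x and 63.5 to 75.2% in 0x. Of its 5 bins, one differed by 64.0 points and another by -4.08 points. Emilin1, an elastin-associated matrix glycoprotein, was the one body that fell, to 7.58% in 10x, against 35.9% in 0x (-28.3 points; limma, adjusted p = 0.0344). The 10x samples read 4.32, 4.48, 8.06, 5.36, 18.4 and 4.81% and the 0x samples 41.2, 37.5, 40 and 25%. In 4 of its 5 bins single 0x samples stood at 0% beside others at 12.2% or more, and in its first bin 10x sample 33 had 58.3%. The call was lost without any 1 of 7 samples for C1qtnf7, of 9 for Gm31657 and of 8 for Emilin1, 10x sample 32 among them (limma, adjusted p = 0.105, 0.105 and 0.109 without it). With the sample run as a block the adjusted limma p was 0.101 for all 3.

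Bodies that missed the threshold included several genes with many bins. Dclk1, a microtubule-associated kinase with 16 bins, had 86.4% in 10x and 72.7% in 0x, with 83.7 to 89.1% in 10x and 68.4 to 78.0% in 0x (limma, adjusted p = 0.11). Ahrr, the repressor of the aryl hydrocarbon receptor, had 93.7% in 10x and 66.8% in 0x, Brinp2 88.1% and 63.7%, Ip6k3 88.6% and 68.6%, BC052040 76.5% and 64.2%, and Slc11a2, with the bin printed above, 83.9% and 67.3%. Lower in 10x were Gm10863 (57.2% in 10x and 74.9% in 0x), Pttg1ip (44.8% and 67.6%), Sgk3 (61.2% and 74.3%), Pld5 (62.7% and 73.0%), 5330439K02Rik (56.4% and 69.6%) and the overlapping pair Gm12923 and Gm46868 (46.3% and 63.4%). All of these were picked among bodies whose groups did not overlap. Of all 8843 bodies, 196 were higher and 23 lower in 10x with no overlap.

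No member of the 20 gene lists passed the adjusted threshold, in promoters or bodies, so the lists are given by their counts and medians beside those of all genes. Of all 18080 promoters, 8465 were higher in 10x and 9615 lower (median -0.173 points). Of all 8843 bodies, 6027 were higher and 2816 lower (median 1.91 points). How the list values depend on the choice of bins was not tested. HSC transcription factors had 19 promoters with values, of which 16 were lower in 10x (median -1.87 points), and 3 (Mecom among them) were lower at an unadjusted limma p under 0.05, beside 3.45% of all promoters. The promoter of Lmo2, a bridging factor of blood stem cells, had 0.481 to 4.12% in 10x and 6.68 to 20.9% in 0x (limma, adjusted p = 0.354). At the Hoxa9 promoter 4 of 6 10x samples and 2 of 4 0x samples stood at 0%, and the highest were 2.90% in 10x and 42.1% in 0x. In bodies the list was split, with 7 of 15 higher and a median of -0.697 points, where all genes had 1.91 points. Without 10x sample 32 these medians were 0.237 and 1.95 points.

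HSC surface markers had 11 of 13 promoters higher in 10x (median 2.16 points), beside 8465 of 18080 promoters in all. At an unadjusted limma p under 0.05, 3 of them were higher (2 without 10x sample 32), beside 2.88% of all promoters. Bodies of this list went the other way, with 3 of 10 higher and a median of -1.10 points (-0.125 without 10x sample 32), where all bodies had 1.91 points. The widest gap was at Cd48, a SLAM family marker that HSCs lack and many progenitors carry. Its promoter, read in 1 bin, had 71.9, 100, 55.2, 71.5, 52.4 and 70.7% in 10x and 40.4, 0, 0 and 29.9% in 0x. The groups did not overlap, with a difference of 52.7 points (SE 11.04; limma, adjusted p = 0.292). The adjusted p was 0.694 without 10x sample 32. At Flt3, the receptor that marks the exit from the stem cell state, the promoter averaged 41.3% in 10x and 37.8% in 0x. Genes raised in old HSCs had 7 of 12 promoters higher (median 0.542 points) and 2 of 7 bodies higher (median -1.29 points), with Clu at 1.48% in 10x and 4.01% in 0x and Itgb3 at 3.23% and 0.676%.

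Factors of the blood lineages had medians close to 0 in promoters. Myeloid factors had 4 of 10 promoters higher (median -0.154 points), and in the body of Irf8, a monocyte factor, 10x averaged 79.9% and 0x 73.2% (limma, adjusted p = 0.31). Lymphoid factors had 9 of 13 promoters higher (median 0.809 points). The promoter of Gata3, a T cell factor, averaged 3.43% in 10x and 14.7% in 0x (limma, adjusted p = 0.469), and the body of Tcf7 93.4% and 80.3%. Of 6 promoters of erythroid and megakaryocyte genes, 5 were lower (median -0.529 points), and that of Epor, the erythropoietin receptor, had 0.428 to 13.04% in 10x and 13.1 to 23.0% in 0x. The highest 10x and the lowest 0x sample were nearly equal at Epor (limma, adjusted p = 0.469).

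Genes that write, read or remove methylation and Polycomb marks were spread to both sides of 0 in promoters. Methylation writers and erasers had 8 of 14 promoters higher (median 0.431 points) and 7 of 9 bodies higher (median 2.55 points). The promoter of Dnmt1 lay at 0 to 2.29% in 10x and 1.27 to 11.1% in 0x. Genes of Polycomb complexes PRC2 and PRC1 had 14 of 24 promoters higher (median 0.257 points), and in the body of the PRC2 cofactor Jarid2 10x averaged 56.5% and 0x 63.7% (limma, adjusted p = 0.311). Developmental regulators that PRC2 holds in stem cells had 34 of 65 promoters higher (median 0.0561 points) and 26 of 58 bodies higher (median -0.327 points). The body of T, the brachyury gene, averaged 81.7% in 10x and 95.4% in 0x (limma, adjusted p = 0.26).

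Hox genes, which set position along the body and include HSC regulators, had 26 of 37 promoters lower (median -1.87 points). At an unadjusted limma p under 0.05, 2 were lower and 2 higher, beside 3.45% lower and 2.88% higher of all promoters. Without 10x sample 32, 1 was lower and 2 higher at that p. The Hoxc6 promoter ran the other way, at 29.3% in 10x and 14.8% in 0x over 8 bins, and its body at 39.9% and 26.8% (limma, adjusted p = 0.534 and 0.31). Wnt pathway genes had 19 of 36 promoters and 20 of 30 bodies higher (medians 0.276 and 1.21 points). Wnt6 had a body mean of 38.2% in 10x and 28.4% in 0x with no overlap, although the highest 0x sample (33.6%) lay close to the lowest 10x sample (33.9%). The promoter of Wnt1 averaged 8.54% in 10x and 1.85% in 0x.

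Genes of fluorouracil handling and of damage responses had more promoters lower than higher in 10x, as had all promoters. Their median promoter levels were low, at 2.63% in 10x and 4.25% in 0x for fluorouracil genes and 2.62% and 3.27% for p53 and damage response genes. In bins under 10% the difference depended on the choice of bins, as given above, and the lists were not tested with another choice. Of the promoters of fluorouracil metabolism and uracil repair, 13 of 17 were lower (median -1.43 points), 3 of them at an unadjusted limma p under 0.05 (2 without 10x sample 32), beside 9615 of 18080 promoters lower in all and 3.45% at that p. Dpyd, which codes for the enzyme that breaks fluorouracil down, had a promoter at 0.615 to 4.41% in 10x and 4.81 to 12.1% in 0x (-6.50 points; limma, adjusted p = 0.444). In the same list, the body of the exporter gene Abcc5 lay at 93.0 to 99.8% in 10x and 78.3 to 89.8% in 0x, and that of Ung, the uracil glycosylase, at 90.2 to 100% and 79.2 to 94.4%. Genes of the p53 and DNA damage response had 17 of 25 promoters lower (median -0.649 points) and 9 of 11 bodies lower (median -1.33 points). Cell cycle inhibitors had 7 of 11 promoters lower (median -0.425 points), with Cdkn2a at 2.93% in 10x and 4.85% in 0x over 14 bins.

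Imprinted genes carry methylation on 1 parental copy. Their bodies were higher in 17 of 20 (median 5.03 points), beside 6027 of 8843 bodies in all (median 1.91 points). At an unadjusted limma p under 0.05, 5 of them were higher, beside 9.93% of all bodies (3 without 10x sample 32, with a list median of 4.83 points). Commd1, which hosts the imprinted gene Zrsr1 in an intron, had 42.0 to 82.3% in 10x and 20.6 to 53.3% in 0x, and Zrsr1 31.5 to 70.1% and 33.5 to 49.5%. Promoters went both ways, with Nnat at 32.8% in 10x and 57.5% in 0x, Plagl1 at 50.1% and 69.1%, and Kcnq1ot1 at 26.6% and 1.64%. At all 3 promoters the samples of a group differed widely and the groups overlapped. Germline genes had 12 of 17 promoters higher (median 1.37 points), among them Pramel1 (86.5 to 96.9% in 10x and 72.0 to 85.9% in 0x). All 7 bodies of pluripotency genes were higher (median 3.65 points), as were most bodies in all. At an unadjusted limma p under 0.05, 1 of these 7 was higher, and 0 without 10x sample 32.

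Drivers of clonal hematopoiesis had 10 of 21 promoters higher (median -0.476 points). In this list the body of Stag1, a cohesin subunit, lay at 86.8 to 93.0% in 10x and 70.1 to 85.9% in 0x (limma, adjusted p = 0.268). Inflammatory sensing genes had 13 of 19 promoters lower (median -0.755 points) and 11 of 14 bodies higher (median 1.36 points). The body of Nod2, a sensor of bacterial cell wall, lay at 52.9 to 70.1% in 10x and 27.0 to 51.8% in 0x, and that of the TNF receptor gene Tnfrsf1b averaged 73.3% in 10x and 49.0% in 0x (limma, adjusted p = 0.26 and 0.31). Protocadherins and cadherins had 9 of 17 promoters lower (median -0.436 points) and 12 of 16 bodies higher (median 2.14 points).

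**Figure D5:**
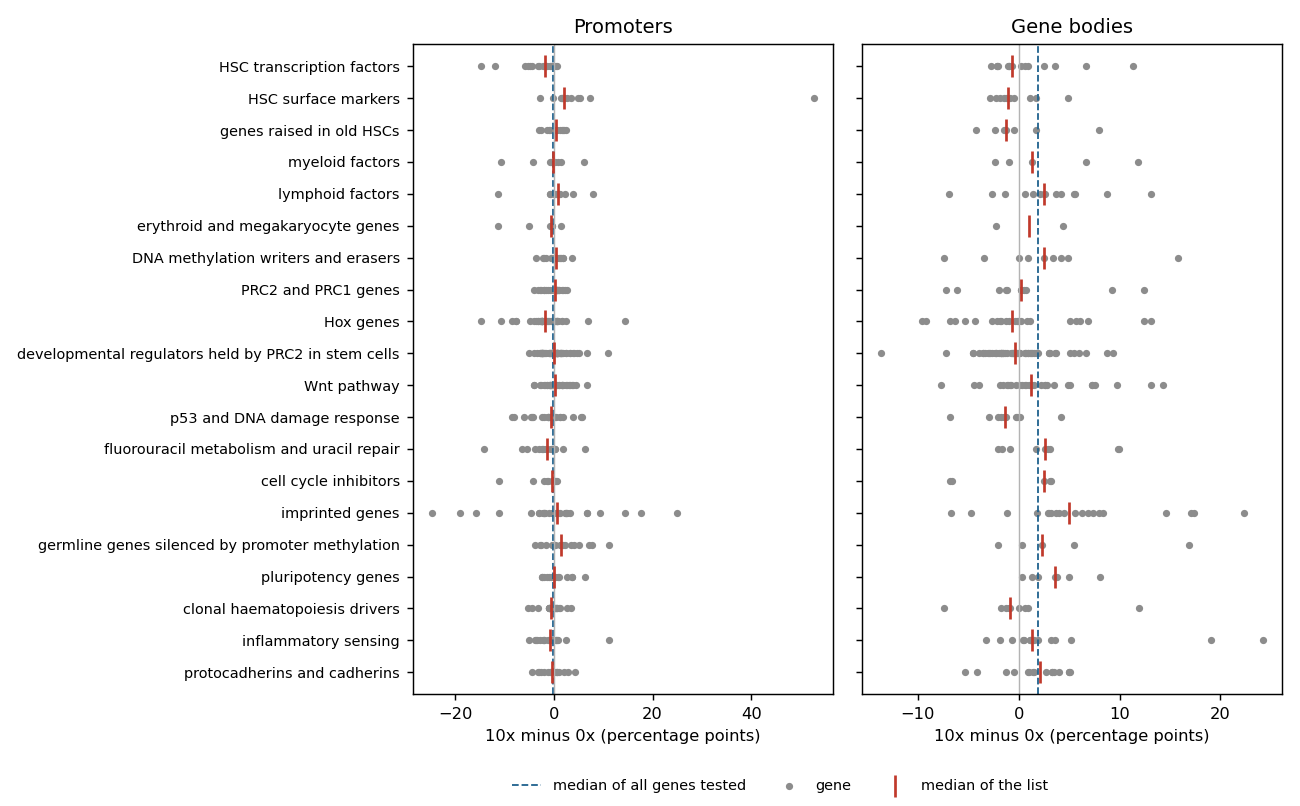
Difference 10x minus 0x in percentage points for each gene of 20 lists, in promoters (left) and gene bodies (right); red bars are list medians and the dashed line the median of all genes tested. Promoter medians lie between -1.87 and 2.16 points, with -0.173 for all genes. Body medians lie between -1.33 and 5.03 points, with 1.91 for all genes and several lists below 0.

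Among the genes that the paper discusses, 6 stem cell and Polycomb genes with values showed no difference past the threshold. The paper names these 6 for enrichment of their targets or binding, whereas the values here are at the genes themselves. Promoters of Ezh2 and Suz12, the core of PRC2, averaged 2.45% and 2.21% in 10x and 1.34% and 2.31% in 0x. That of Klf4 averaged 3.13% in 10x and 3.70% in 0x, that of Pou5f1, which codes for Oct4, 51.0% and 47.4%, and that of Bcl6 1.41% and 2.21%. Runx1 had a promoter at 6.88% in 10x and 11.3% in 0x and a body of 25 bins at 79.2% and 80.2%. Nanog and Slamf1 had no promoter or body with values in the set.

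Methylation cannot show which genes the sorted cells expressed. Markers of the cell type were read at few promoters: HSC markers had 6 of 10 with values, at a median of 2.25% in 10x and 4.09% in 0x, and erythroid markers 3 of 6, at 2.92% and 3.65%. Lymphoid markers had 2 of 8, at 64.9% in 10x and 53.8% in 0x, and myeloid markers 2 of 8, at 35.0% and 37.4%. Among platelet and megakaryocyte markers 1 of 4 had a value, 13.7% in 10x and 8.86% in 0x. A change in the mix of sorted cells and a change of methylation within them cannot be told apart in bulk DNA.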

How the data were processed

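Per the labels, the authors processed the RRBS reads with Bismark 0.23.1 (genome mm10) after trimming in Trim Galore 0.4.3, and with methylKit 1.22.0, at a minimum of 10 reads. They deposited percent methylation in 100 bp bins, 1 file for each of the 20 samples, in which the authors had filled bins missing in a sample with the mean of its group; filled values are not marked. Their test on read numbers could not be run, and limma 3.58.1 in R 4.3.3 on the percents was used in its place. Samples were grouped by the treatment in the labels. RefSeq genes of GRCm38, the assembly of mm10, were used to place the bins. Class means were compared in two-sided exact permutation tests, and bins, promoters and bodies with limma and Benjamini-Hochberg adjustment over all of each kind tested. For bins a difference of at least 10 points was required. Named are the 10 bins, promoters and bodies with the largest differences past the threshold in each direction. Where fewer passed, those with the smallest p among the ones whose groups did not overlap filled up the 10. Up to 3 members of each gene list with the largest differences are also named, and 8 of the autosomal genes the paper discusses. A few list members are given by the same rule in promoters or bodies only. The bins, gene lists and rules were chosen with earlier results of these data known. Alternatives covered the bins used, the threshold, the scale, the variance model, the run of sample numbers as a block, promoter width and each sample left out. Scripts were tested on simulated data. Tables and plots were made in Python 3.11.15 with pandas 2.3.3, numpy 2.4.6 and matplotlib 3.10.9. Sex chromosomes were left out of the report, and 1 bin and 1 promoter that met these rules are not reported here.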

Additional observations from a re-analysis of the deposited data

Results flagged for a closer look

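Dixon's test for a sample far from the others of its group was run on 274 groups of 4 or 6 values, and 27 were set apart; chance sets apart about 1 in 20. Among the class means, 0x sample 01 was highest at 5 to 20 kb from a TSS (76.2%, the other 0x samples 74.1 to 74.4%). At named bins, 10x sample 12 was lowest at Galnt15 (71.4%), 31 at Azin2 (88.9%) and 34 at Ednrb (86.2%), while 10x sample 11 was highest at Krt84 (66.7%) and 12 at Rcvrn (1.12%). In 0x, sample 01 was highest at Slc11a2 (10.6%) and lowest at Kcnc1 (73.8%) and Twist2 (95.7%).

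In promoters, 10x samples set apart were 12 at Timd4 (91.5%), 11 at Zfp414 (1.53%) and 11 at Bcl6 (0.573%). The 0x samples were 01 at Gm30012 (25.8%), 02 at Wfdc2 (27.3%), 13 at Clu (7.40%), 02 at Itgb3 (1.96%), 02 at Dnmt1 (11.1%) and 02 at Kcnq1ot1 (6.57%). In bodies, 10x samples were 33 at Emilin1 (18.4%), 34 at Gm12923 and at Gm46868 (35.2%, the same bins), 33 at Idh2 (66.7%), 34 at Ung (90.2%) and 11 at Abcc5 (99.8%). The 0x samples were 13 at BC052040 (68.7%), 02 at Runx1 (83.6%) and 13 at Notch1 (78.6%).

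On chromosome X, outside the autosomal set, 6221 bins chosen in the same way averaged 69.1% in 10x and 67.0% in 0x, with 2.11 points between them (two-sided exact permutation test, p = 0.00952). The 10x samples lay between 68.2 and 69.9% and the 0x samples between 66.3 and 68.2%, so that the groups met at their edges.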

How the results depend on the processing

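Of 214 alternative values of the class means, 199 kept their direction and their side of the threshold. The difference over all bins lay between 1.20 and 2.09 points (1.55 to 2.09 with 1 sample left out), and that between distal bins and promoters between 1.35 and 3.34 points. Within 1 kb of a TSS the difference turned to 0.498 points in all deposited bins (exact permutation test, adjusted p = 0.00476), 0.431 with repeated values set to missing (adjusted p = 0.00952 in the same exact test) and 0.302 in bins chosen by 2x and 4x (adjusted p = 0.0429, likewise exact), so that 10x was higher there. It was also above 0, short of the threshold, at 0.0900 in bins also selected in 2x and 4x, 0.675 without values at 0 or 100, and without 10x sample 12 or 34 or 0x sample 01 (-0.101 to 0.0871 with 1 sample left out). The choice by 2x and 4x and that without values at 0 or 100 were made after seeing the data. In bins under 10% it turned to 0.00134 and 0.172 in the first pair (exact permutation test, adjusted p = 0.952 and 0.0143). Without values at 0 or 100 it was -0.956 there (exact permutation test, adjusted p = 0.0833). In bins of 10 to 30% it turned to 1.62 and 1.24 in that pair (exact permutation test, adjusted p = 0.00595 and 0.0143). It was 0.296 there in bins chosen by 2x and 4x, and with levels from all 10 samples -1.34. The causes were not tested.

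Counts past the threshold are given as higher then lower in 10x. Bins were 48803 and 28203 in all deposited bins and 6061 and 2478 with repeated values missing. They were 6 and 5 in bins also selected in 2x and 4x, 4 and 1 with the sample run as a block, 0 and 0 with a log2 ratio of the percents (4922 and 2553 at an unadjusted p under 0.05), 0 and 0 with a variance trend (5035 and 2012), and 0 to 193 and 1 to 57 with 1 sample left out. Promoters were 2007 and 1555, 287 and 265, 3 and 2, and 1 and 1 under the first 4 of these, 1 and 0 with the log2 ratio, 0 and 0 within 500 bp and with at least 3 bins, and 0 to 4 and 1 to 3 with 1 sample left out. Bodies were 3314 and 1280, 1022 and 333, 7 and 1, and 1 and 0 under the first 4, 0 and 0 with the log2 ratio, 11 and 2 with at least 1 bin, and 1 to 9 and 0 to 1 with 1 sample left out. Among the fits with 1 sample left out, bins were highest, at 193 and 57, without 0x sample 01 and lowest, at 0 and 1, without 10x sample 32. No paired analysis was possible because the groups share no replicate numbers. The depth is unknown and limits what a single bin shows.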
